A study of Homo sapiens with 4 samples.

Results

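The genes described here encode enzymes of cholesterol synthesis (HMGCS1, IDI1, FDFT1, SQLE, LSS and DHCR7) together with INSIG1 and SREBF2, which encode regulators of the pathway. They were chosen by name as a pathway, with earlier results of these data known. Every probe set that the probe-to-gene table maps to them was used, which gave 21 probe sets for 7 of the 8 genes, out of 54613 probe sets for 19775 genes. FDFT1, squalene synthase, has no probe set named in that table and was not analysed here. RNA of A549 cells, which derive from a human adenocarcinoma of the lung, was hybridised to 4 Affymetrix U133 Plus 2.0 arrays, 1 for each condition. The conditions were ARRB1 siRNA with nicotine, ARRB1 siRNA serum starved, control siRNA with nicotine and control siRNA serum starved. ARRB1 encodes β-arrestin-1, a scaffold protein of receptor signaling that the study places downstream of nicotinic receptors. By the labels, all cells were transfected with siRNA and serum starved for 36 h, and nicotine was given at 1 µM for 24 h. Serum starvation is thus shared by all 4 arrays, and no array represents cells kept in serum. No harvest time is recorded here for the serum starved arrays. If they were taken before the 24 h with nicotine, a difference in time cannot be told apart from nicotine. Without replicates there is no replicate error and no test between conditions was made, so precision is limited by the small number of arrays. In such bulk RNA, fewer cells of a type and less RNA per cell cannot be told apart.

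Cells make cholesterol from acetyl-CoA through mevalonate, isoprenoid units, squalene and lanosterol, and they take it up from lipoproteins. When the membranes of the endoplasmic reticulum are low in sterols, the SREBP transcription factors encoded by SREBF2 and SREBF1 are carried to the Golgi, cleaved, and released to the nucleus, where they bind the sterol regulatory element in promoters of synthesis and uptake genes. INSIG1 holds the SREBP escort protein in the endoplasmic reticulum when sterols are plentiful, and it is itself a target of the pathway.

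The values are MAS5 signals on a linear scale (intensity), and differences between arrays were taken on the log2 scale. The trimmed mean signal, with 2% of probe sets left out at each end, was 500.1 on each array, and array medians ranged between 68.7 and 73.3. Each gene was represented by its brightest probe set (mean log2 signal), and the 12521 genes at or above the median over probe sets (66.3) are called expressed. As a measure of spread in place of replicates, the SD of log2 differences between the same arrays was taken over the 500 probe sets closest in signal. Where an SD is given below it is this one, and some differences are given without it. ARRB1 itself had signals of 224 and 191 in nicotine treated and serum starved ARRB1 siRNA cells, and 331 and 352 in the corresponding control siRNA cells, on its brightest probe set, and 4 of its 5 expressed probe sets were lower with ARRB1 siRNA in both pairs. All 9 epithelial and A549 markers examined were expressed, against 0 of 4 leukocyte, 2 of 5 fibroblast (COL1A1 and DCN) and 1 of 3 endothelial (PECAM1) markers with a probe set.

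All 7 measured genes of the pathway were expressed, and 20 of their 21 probe sets reached the median signal. None of the 7 differed by 2-fold in any of the 4 comparisons. None differed by 1.5-fold either, on the representative probe set. IDI1 passed 1.5-fold with nicotine in both pairs (0.62 in ARRB1 siRNA and 0.61 in control siRNA cells) when _x_at and _s_at probe sets were left out, which leaves a dim probe set to represent it. Among all expressed genes, 1.80% differed at least 2-fold between ARRB1 siRNA and control siRNA in serum starved cells, and 2.28% did in nicotine treated cells. With nicotine against serum starved, the shares were 1.05% in control siRNA cells and 1.45% in ARRB1 siRNA cells. At 1.5-fold the corresponding shares were 8.76%, 10.2%, 4.70% and 6.86%. In each single comparison fewer than 1 of 7 genes would thus pass at the background share, and the absence of calls is not a result about these genes. The share of genes that pass in at least 1 of the 4 comparisons was not computed. The shares also depend on brightness. Among genes above the 75th percentile of signal, they were 3.80%, 4.71%, 0.723% and 2.46% at 1.5-fold.

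The median log2 difference of the 7 genes with ARRB1 siRNA was 0.02 in serum starved and 0.02 in nicotine treated cells, where the medians over all expressed genes were 0.02 and 0.02. With nicotine the median of the 7 was 0.05 in control siRNA cells and 0.03 in ARRB1 siRNA cells, beside -0.02 and -0.01 over all expressed genes. Over the alternatives, the median for nicotine in ARRB1 siRNA cells stayed above 0 (0.02 to 0.10), while each of the other 3 took either sign. Centring each array on its median shifts every gene by the same amount within a comparison, so it moves the 7 genes and all genes together. With centred arrays the ARRB1 siRNA medians were -0.05 in serum starved and 0.11 in nicotine treated cells, beside -0.06 and 0.10 over all expressed genes. The nicotine medians were then -0.05 in control siRNA and 0.10 in ARRB1 siRNA cells, beside -0.12 and 0.06 over all expressed genes.

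**Figure D1:**
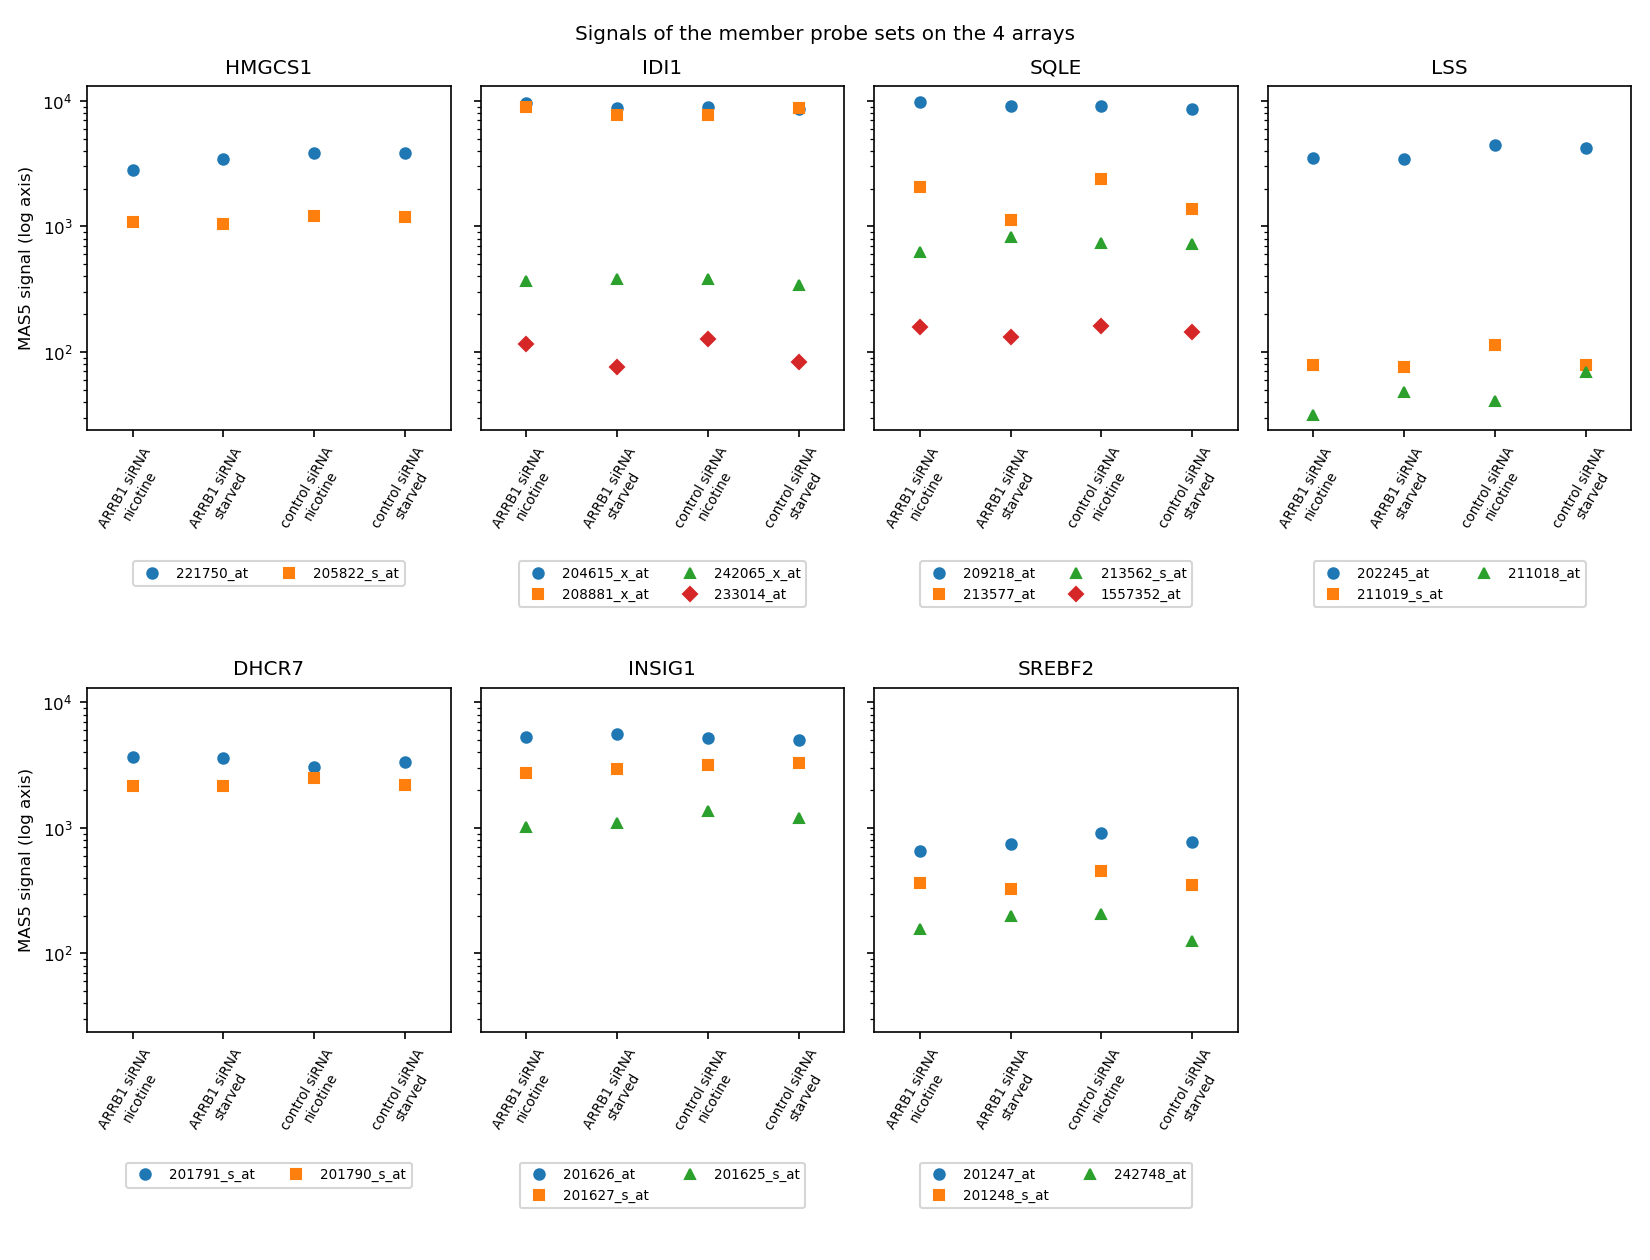
MAS5 signal (log axis) of each probe set of the 7 measured genes on the 4 arrays, 1 point per array and 1 symbol per probe set. Most probe sets vary less than 1.5-fold between their highest and lowest array. SQLE probe set 213577_at is higher on both nicotine arrays (2055 and 2402) than on both serum starved arrays (1130.2 and 1387.5). Its highest signal is 2.13 times its lowest, and that of the dim LSS 211018_at is 2.18 times.

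HMGCS1, the cytosolic HMG-CoA synthase that makes the substrate of mevalonate production, had a signal of 2800.2 in nicotine treated and 3463 in serum starved ARRB1 siRNA cells, against 3828 and 3860.4 in the corresponding control siRNA cells on probe set 221750_at. Both ARRB1 siRNA arrays lay below both control siRNA arrays. Here and for the genes below, the share of all expressed probe sets whose arrays separate in this way was not computed. The log2 difference with ARRB1 siRNA was -0.45 in nicotine treated and -0.16 in serum starved cells, where probe sets of similar signal had an SD of 0.29 and 0.24. Its other probe set, 205822_s_at, was lower as well, at 1077 and 1045 in ARRB1 siRNA cells against 1209 and 1182 in control siRNA cells, a difference of -0.17 and -0.18. With nicotine HMGCS1 differed by -0.31 in ARRB1 siRNA cells (SD 0.22) and by -0.01 in control siRNA cells on 221750_at, and by 0.04 and 0.03 on 205822_s_at.

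IDI1, the isomerase that balances the isoprenoid units, gave signals of 9662 (nicotine) and 8721 (starved) in ARRB1 siRNA cells, against 8883 and 8583 in control siRNA cells on 204615_x_at. The highest of these signals was 1.13 times the lowest. The _x_at suffix marks probe sets with probes that also match other transcripts, and 3 of the 4 IDI1 probe sets carry it. On 208881_x_at the signals were 8901 and 7727 in ARRB1 siRNA cells and 7708 and 8697 in control siRNA cells, so that nicotine was 0.20 higher in ARRB1 siRNA cells and 0.17 lower in control siRNA cells on the log2 scale. The probe set without the suffix, 233014_at, was much dimmer and higher with nicotine in both cell groups, at 115.5 against 75.2 in ARRB1 siRNA cells and 127 against 83.7 in control siRNA cells. These are ratios of 1.53 and 1.52, and log2 differences of 0.62 and 0.61, where probe sets of similar signal had an SD of 0.55 and 0.46.

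SQLE, squalene epoxidase, an oxygen-requiring and rate-limiting step of the sterol branch, gave the largest nicotine differences of any expressed probe set of the 7 genes. On 213577_at its signal was 2055 with nicotine against 1130.2 when serum starved in ARRB1 siRNA cells, and 2402 against 1387.5 in control siRNA cells. The nicotine arrays did not overlap the serum starved arrays, and how often this happens among all probe sets was not computed. The ratios were 1.82 and 1.73 and the log2 differences 0.86 and 0.79, against an SD of 0.24 and 0.18 for probe sets of similar signal. The other 3 SQLE probe sets had smaller nicotine differences. The brightest, 209218_at, had 9855 against 9106 in ARRB1 siRNA cells and 9136 against 8608 in control siRNA cells, log2 differences of 0.11 and 0.09. The log2 differences of 1557352_at were 0.26 and 0.16, and those of 213562_s_at were -0.40 and 0.04. Why the probe sets of SQLE differ was not tested.

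With IDI1 and SQLE, 2 of the 20 expressed probe sets of these genes (10%) were at least 1.5-fold higher with nicotine in both pairs of arrays, which share no array, beside 0.868% of all 27307 expressed probe sets. With each array centred on its median, or after quantile normalization, 1 probe set was left, that of SQLE. At the level of genes, IDI1, SQLE and LSS were higher with nicotine in both pairs by any amount, 3 of 7, where 23.7% of expressed genes were. None of the 3 was higher in both pairs with centred arrays, a scaling that lowers every nicotine difference in control siRNA cells by the same amount.

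LSS, lanosterol synthase, which closes the sterol rings, gave 3518 (nicotine) and 3452 (starved) in ARRB1 siRNA cells, against 4421 and 4183 in control siRNA cells on 202245_at. Both ARRB1 siRNA arrays lay below both control siRNA arrays. The log2 difference with ARRB1 siRNA was -0.33 in nicotine treated and -0.28 in serum starved cells, slightly beyond the SD of 0.27 and 0.24 at this signal. The other LSS probe sets, 211019_s_at and 211018_at, were also lower in both pairs, but both were dim, with signals between 31.6 and 114. With nicotine 202245_at differed by 0.03 in ARRB1 siRNA and by 0.08 in control siRNA cells.

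DHCR7, the reductase of the last step to cholesterol, gave 3679 (nicotine) and 3578 (starved) in ARRB1 siRNA cells, against 3082 and 3319 in control siRNA cells on 201791_s_at. These are log2 differences of 0.26 and 0.11 with ARRB1 siRNA, within the SD of 0.28 and 0.24. Its other probe set, 201790_s_at, differed in the opposite direction, with 2163 and 2153 in ARRB1 siRNA cells against 2498 and 2194 in control siRNA cells (-0.21 and -0.03). The direction for DHCR7 thus depended on the probe set.

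INSIG1 gave 5309.8 (nicotine) and 5602 (starved) in ARRB1 siRNA cells, against 5226 and 5051 in control siRNA cells on 201626_at, and the highest of these was 1.11 times the lowest. On 201627_s_at the signals were 2742 and 2969 in ARRB1 siRNA cells and 3162 and 3285 in control siRNA cells, lower with ARRB1 siRNA in both pairs (-0.21 and -0.15). On 201625_s_at they were 1010.4 and 1101 in ARRB1 siRNA cells against 1375.5 and 1207.5 in control siRNA cells, a difference of -0.45 in nicotine treated and -0.13 in serum starved cells. The probe sets of INSIG1 therefore gave no single direction with ARRB1 siRNA.

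SREBF2, which encodes the SREBP that mainly drives sterol genes, gave 655 (nicotine) and 739 (starved) in ARRB1 siRNA cells, against 909 and 773 in control siRNA cells on 201247_at. In the nicotine treated pair the log2 difference with ARRB1 siRNA was -0.47, against an SD of 0.33, and in the serum starved pair it was -0.06. All 3 probe sets were lower with ARRB1 siRNA in nicotine treated cells. The other probe sets had 361 against 451 (201248_s_at, -0.32) and 157 against 205 (242748_at, -0.38) there. In serum starved cells 201248_s_at differed by -0.09, while the dim 242748_at was higher with ARRB1 siRNA, at 198 against 125 (0.67, SD 0.41). In control siRNA cells all 3 had higher signals after nicotine, by 0.23, 0.37 and 0.71, where probe sets of similar signal had an SD of 0.22, 0.28 and 0.35. In ARRB1 siRNA cells the same nicotine differences were -0.18, 0.15 and -0.33. The highest SREBF2 signal was that of nicotine treated control siRNA cells on each of its 3 probe sets.

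The promoter of SREBF2 is shown because it was the one member promoter that held the sterol regulatory element as searched. Promoter windows of 300 bases, from 250 before to 50 after a RefSeq gene start (GRCh38.p14), were found for 6 of the genes (10 windows, since some genes have several starts). The letters TCACNCCAC, on either strand, occur in 1.13% of 35116 promoter windows in the table. The match in SREBF2 lies upstream of the gene start, and a stretch of 120 bases around it, chr22:41832912-41833031 on the plus strand, reads as follows with the element in capitals.
SREBF2: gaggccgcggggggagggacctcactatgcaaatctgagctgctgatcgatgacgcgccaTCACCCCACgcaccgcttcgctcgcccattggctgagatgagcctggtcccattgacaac
The NF-Y box CCAAT, whose factor is known to act with SREBPs, occurs on either strand in 7 of the 10 windows, beside 34.6% of all windows. The Sp1 box GGGCGG occurs in 9 of the 10, beside 45% of all windows. Windows of 1 gene can overlap and are not independent. These matches are letters in a window, and binding was not measured.

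Across the 7 genes, HMGCS1, LSS and SREBF2 were lower with ARRB1 siRNA in both pairs, 3 of 7, beside 30.0% of all expressed genes, and the remaining 4 were higher in both pairs, beside 34.6% of all expressed genes. The lower genes again numbered 3 with centred arrays or quantile normalized signals, and 5 by the median over each gene's probe sets. The higher genes numbered 1 after quantile normalization. Counted over probe sets, 12 of the 20 expressed ones were lower in both pairs (60%), beside 32.6% of all expressed probe sets. Probe sets of 1 gene measure the same RNA sample and are not independent. Beyond the SD of probe sets of similar signal, 4 of the 20 were lower and 0 higher with ARRB1 siRNA in nicotine treated cells, and 2 were lower and 1 higher in serum starved cells. Among all expressed probe sets, 27.6% and 28.2% passed this SD in either direction in those comparisons.

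**Figure D2:**
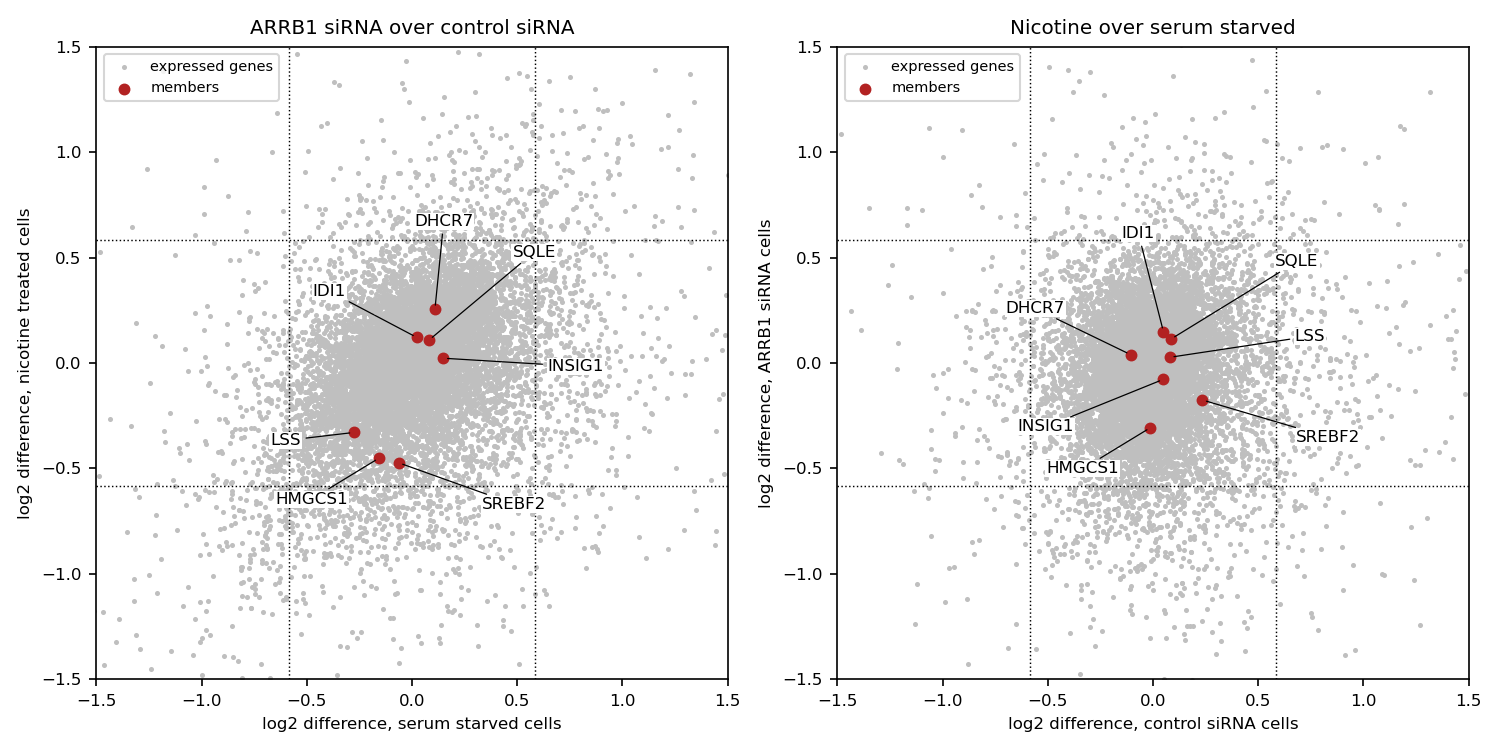
Log2 difference of each expressed gene (grey) and of the 7 measured pathway genes (red) on the representative probe set, for ARRB1 siRNA over control siRNA in serum starved (horizontal) and nicotine treated cells (vertical), and for nicotine over serum starved in control siRNA (horizontal) and ARRB1 siRNA cells (vertical). Dotted lines mark 1.5-fold, which none of the 7 genes reaches, and 122 and 78 genes lie outside the axes.

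Whether nicotine differences depended on ARRB1 siRNA was described by the nicotine difference in ARRB1 siRNA cells minus that in control siRNA cells. On the signals as deposited it was largest in size for SREBF2 (-0.41) and HMGCS1 (-0.29), where probe sets of similar signal had an SD of 0.31 and 0.23. For the other 5 genes it lay between -0.13 and 0.15, all on the representative probe sets. This order by size did not hold with centred arrays, where DHCR7 was at 0.31, IDI1 at 0.26, SREBF2 at -0.25 and HMGCS1 at -0.13. Centring adds the same amount to this value for every gene, and SREBF2 and HMGCS1 stayed the lowest of the 7. The other HMGCS1 probe set, 205822_s_at, gave 0.01 as deposited, and the other SREBF2 probe sets gave -0.23 (201248_s_at) and -1.05 (242748_at, SD 0.51). IDI1 208881_x_at gave 0.38 (SD 0.22), SQLE 213562_s_at -0.43 (SD 0.34) and INSIG1 201625_s_at -0.31 (SD 0.31). Of the 20 expressed probe sets, 1 was higher and 5 were lower beyond the SD, beside 27.4% of all expressed probe sets in either direction. The median of the 7 was -0.05, and 0.11 with centred arrays, beside 0.01 and 0.17 over all expressed genes.

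The 5 expressed genes outside the pathway whose log2 signals over the 4 arrays lay nearest to the median profile of the 7 genes were FBRS, ISOC2, URB2, KMT2B and CMTM4. Their Euclidean distances on the log2 scale, after each gene was centred on its own mean, were 0.0243 to 0.0296. The median profile was nearly level, and 727 of 12460 expressed genes outside the lists lay nearer to it than INSIG1, the nearest of the 7 genes (0.0969). HMGCS1 lay farthest among the 7, at 0.396.

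Other sterol synthesis enzymes gave a similar account. Of 12 expressed, 1 was at least 1.5-fold different with ARRB1 siRNA in serum starved cells. This was MVD, the mevalonate diphosphate decarboxylase, with 162 against 244 (-0.59, SD 0.41). In nicotine treated cells MVD had 209.5 against 217 (-0.05). A count of 1 in 12 is near the 8.76% of all expressed genes past 1.5-fold in that comparison. NSDHL, a dehydrogenase that acts in removal of sterol methyl groups, had 1212 and 1300.0 in nicotine treated and serum starved ARRB1 siRNA cells, against 1728 and 1674 in control siRNA cells. These log2 differences were -0.51 and -0.37, and its other probe set, 209279_s_at, was also lower in both pairs, at -0.14 and -0.06. TM7SF2, a sterol reductase, differed by -0.09 and -0.42, where the SD was 0.33 and 0.31. The medians of the 12 with ARRB1 siRNA were 0.04 in nicotine treated and 0.02 in serum starved cells, and those with nicotine were 0.03 in ARRB1 siRNA and -0.01 in control siRNA cells.

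In the isoprenoid branch, none of 8 expressed genes reached 1.5-fold in any comparison on the representative probe set. GGPS1, the geranylgeranyl diphosphate synthase, was lower with ARRB1 siRNA on both probe sets in both pairs, but unequally, with log2 differences of -0.06 and -0.43 in nicotine treated and serum starved cells on 202322_s_at and of -0.84 and -0.35 on 202321_at. The second probe set thus passed 1.5-fold in nicotine treated cells, where its SD was 0.35, and the -0.06 became 0.03 with centred arrays. PDSS1, which makes the side chain of coenzyme Q, had 1294 and 1179.7 in ARRB1 siRNA cells against 1037 and 903 in control siRNA cells, while its dim probe set 236298_at was lower in both pairs. FNTA, a subunit of protein farnesyltransferase, was 0.34 higher with nicotine in ARRB1 siRNA cells and 0.20 higher in control siRNA cells on 200090_at, but differed by -0.08 and -0.07 on 209471_s_at.

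Of 10 expressed regulators, none reached 1.5-fold on the representative probe set. SREBF1, which encodes the SREBP tied mainly to fatty acid genes, came nearest with ARRB1 siRNA. On 202308_at it gave 2557 (nicotine) and 2476 (starved) in ARRB1 siRNA cells, against 3417 and 3649 in control siRNA cells, log2 differences of -0.42 and -0.56. Its other probe set, 1558875_at, was lower by similar amounts, at -0.40 and -0.50. MBTPS1, a protease that cleaves SREBPs in the Golgi, was 0.02 lower in nicotine treated and 0.38 higher in serum starved cells after ARRB1 siRNA. RNF139, a ubiquitin ligase of the endoplasmic reticulum, differed by 0.05 in nicotine treated and -0.33 in serum starved cells. The median of the regulators with ARRB1 siRNA was -0.03 in nicotine treated and -0.15 in serum starved cells.

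Genes of uptake and trafficking had 8 expressed members. NPC1, which exports cholesterol from lysosomes, gave 4485 (nicotine) and 3579.7 (starved) in ARRB1 siRNA cells, against 3001 and 3314 in control siRNA cells, and all 3 of its expressed probe sets were higher with ARRB1 siRNA in both pairs. By any amount, 34.6% of all expressed genes were higher in both pairs. The log2 differences on the brightest NPC1 probe set were 0.58 and 0.11, where the SD was 0.28 and 0.24. On 217584_at they were 0.36 and 0.21 (SD 0.59 and 0.55). On 238568_s_at they were 0.09 and 0.16 (SD 0.46 and 0.39), so both of these lay within the SD. VLDLR, a lipoprotein receptor, differed by 0.05 and 0.37. MYLIP, a ubiquitin ligase that degrades lipoprotein receptors, had opposite differences in the pairs on its representative probe set, which were -0.73 in nicotine treated and 0.60 in serum starved cells. All 4 of its expressed probe sets were lower in the nicotine treated pair and 3 of the 4 were lower in the serum starved pair.

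Among efflux genes, the transporters ABCA1 and ABCG1 were lower with ARRB1 siRNA in both pairs on their representative probe sets. ABCA1, the transporter that loads cholesterol onto apolipoproteins, gave 1411 (nicotine) and 1376 (starved) in ARRB1 siRNA cells, against 2159.9 and 2647 in control siRNA cells on 203505_at. The log2 differences with ARRB1 siRNA were -0.61 and -0.94, where the SD was 0.28 and 0.24. On its other expressed probe set, 203504_s_at, the signals were 971 and 880.3 in ARRB1 siRNA cells against 1691 and 2009.5 in control siRNA cells, or -0.80 and -1.19. On both probe sets the ARRB1 siRNA arrays lay below the control siRNA arrays. How many of all expressed probe sets separate in this way was not computed, but 32.6% were lower in both pairs by any amount. ABCG1 is a transporter that exports cholesterol to lipoprotein particles. On 204567_s_at it had 262 and 303 in ARRB1 siRNA cells against 432 and 501 in control siRNA cells. The ABCG1 differences were -0.72 and -0.73, where the SD was 0.41 and 0.38. Of its 4 expressed probe sets, 3 were lower in both pairs and 232081_at, a dim one, was higher by 0.12 and 0.04, so that ABCG1 turned to higher when _s_at probe sets were left out. ABCA1 and ABCG1 were the 2 of 6 expressed efflux and storage genes that were at least 1.5-fold lower with ARRB1 siRNA in both pairs, beside 1.72% of all expressed genes. The list was drawn up with earlier results of these data known, so this count is no independent support for a difference in efflux genes. With centred arrays ABCG1 alone passed, since ABCA1 was at -0.53 in nicotine treated cells, and without _x_at and _s_at probe sets ABCA1 alone passed. By the median over probe sets, which takes in dim ones, neither passed, with ABCA1 at -0.38 and ABCG1 at -0.52 in serum starved cells. SOAT1, which esterifies cholesterol for storage, differed by -0.22 and 0.13 on its brightest probe set and by 0.07 and -0.35 on 228479_at.

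**Figure D3:**
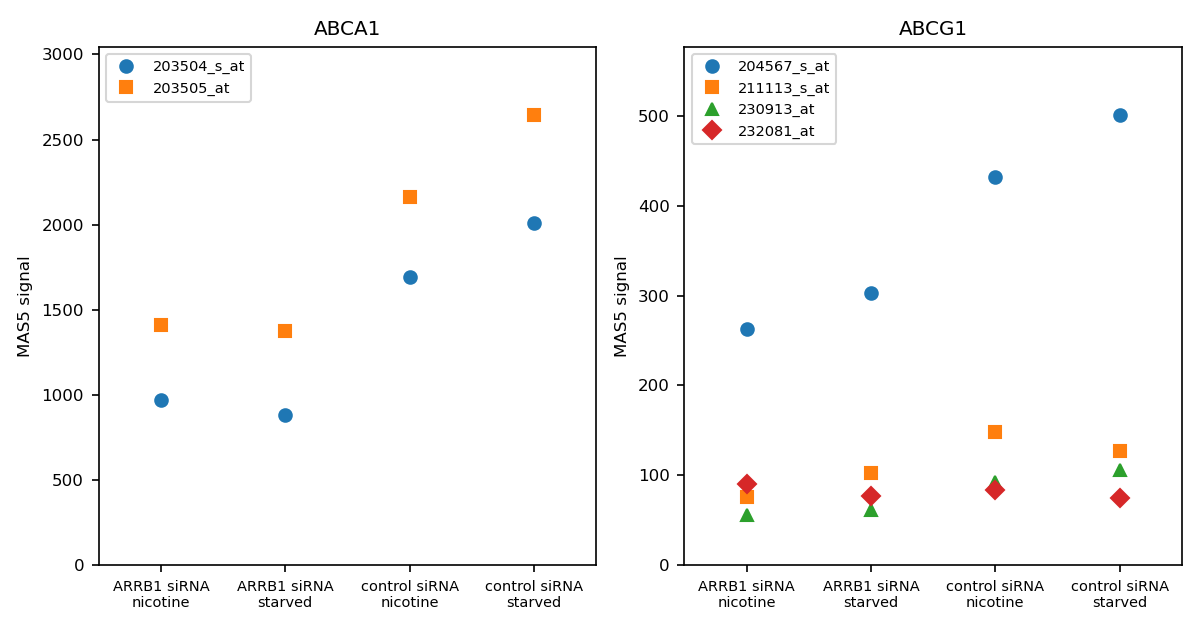
MAS5 signal (linear axis from 0) of the expressed probe sets of ABCA1 and ABCG1 on the 4 arrays, 1 point per array. Both ABCA1 probe sets and ABCG1 204567_s_at lie lower on both ARRB1 siRNA arrays than on both control siRNA arrays, while ABCG1 232081_at does not. The share of all expressed probe sets that separate in this way was not computed.

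Among 10 expressed genes of fatty acid synthesis that are known SREBP targets, FADS2, a fatty acid desaturase, stood apart. Its signal on 202218_s_at was 6372 in nicotine treated and 3823 in serum starved ARRB1 siRNA cells, against 6083 and 8088 in control siRNA cells. The lowest signal was that of serum starved ARRB1 siRNA cells, and the highest was that of serum starved control siRNA cells. With ARRB1 siRNA the log2 difference was 0.07 in nicotine treated and -1.08 in serum starved cells, where the SD was 0.24 and 0.21. The other FADS2 probe set, 243953_at, differed by 0.15 and -0.05 with ARRB1 siRNA in nicotine treated and serum starved cells. ACLY, the ATP citrate lyase that supplies cytosolic acetyl-CoA, had 17088 and 15520.3 in ARRB1 siRNA cells against 13624 and 12218 in control siRNA cells, and all 3 of its probe sets were higher with ARRB1 siRNA in both pairs. Higher values in both pairs, by any amount, were seen in 34.6% of all expressed genes. ACSS2, an acetyl-CoA synthetase, was lower with nicotine, with log2 differences of -0.30 in ARRB1 siRNA and -0.48 in control siRNA cells on its 1 probe set.

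**Figure D4:**
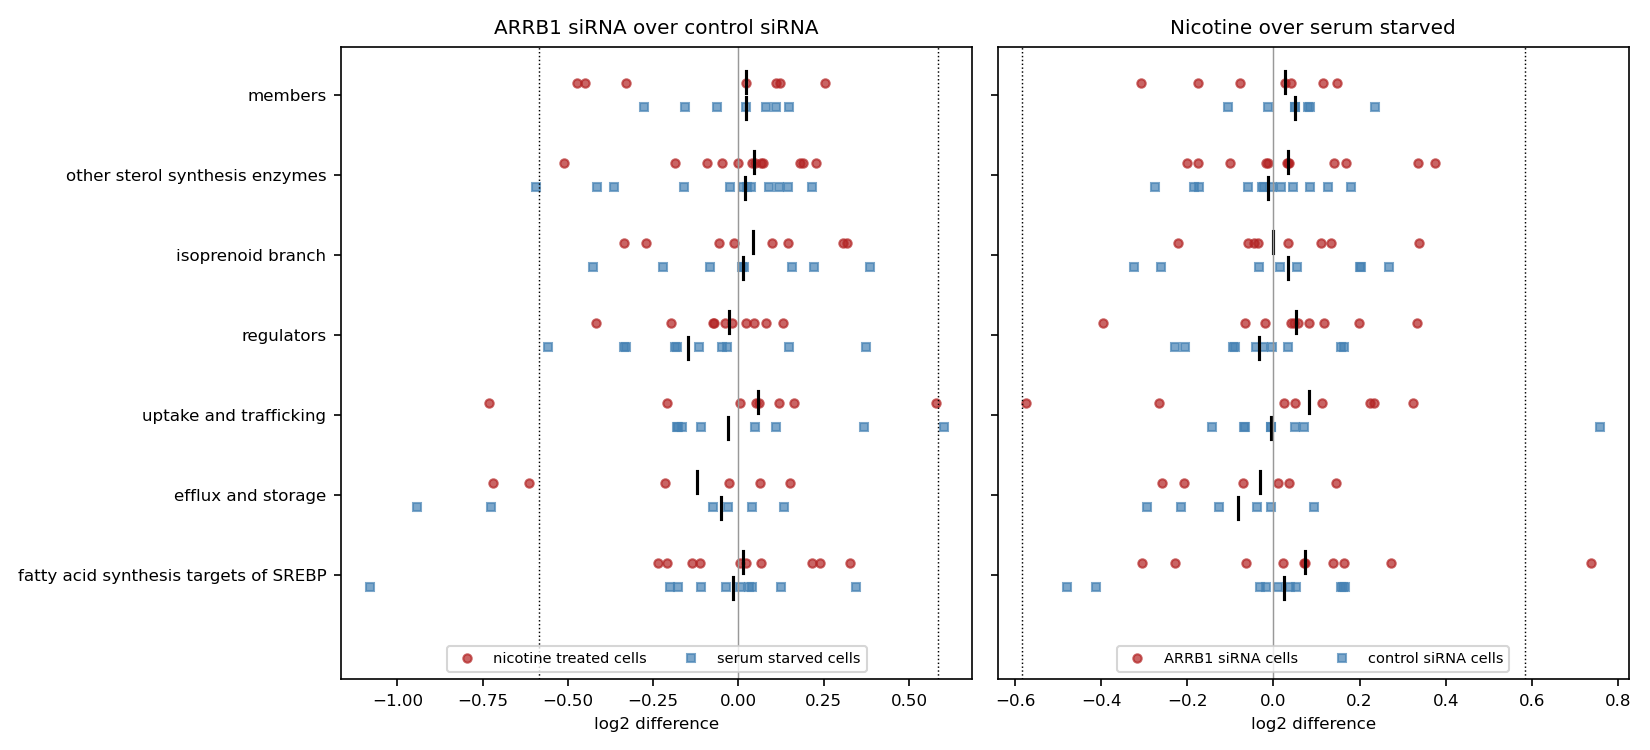
Log2 differences of the expressed genes of each list on the representative probe set (1 point per gene) for ARRB1 siRNA over control siRNA and for nicotine over serum starved, with black bars at list medians and dotted lines at 1.5-fold. List medians lie between -0.15 and 0.08, and the 2 efflux genes left of the lower line in both pairs of the ARRB1 siRNA panel are ABCA1 and ABCG1.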

How the data were processed

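The authors deposited linear MAS5 signal intensities, made in GCOS 1.4 according to the submitters' processing notes, and the study's methods add a log2 transformation and centring of genes that these values do not hold. The 62 control probe sets among the 54675 were set aside. Of the other 54613, 41091 had 1 gene symbol, 1801 had several and 11721 had none in the table given, which dates from an older platform annotation. Symbols were updated by gene identifier to RefSeq GRCh38.p14. No probe set with several symbols named any of the 8 genes.

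Log2 differences were computed with no floor on the signal, in Python 3.11.15 (pandas 2.3.3, numpy 2.4.6), with plots made in matplotlib 3.10.9. The 2-fold limit is the submitters', and 1.5-fold was added. The spread given is the SD over the 500 probe sets nearest in mean log2 signal. The functions were tested on simulated data. The 8 genes and the 6 lists were chosen with earlier results of these data known. Named genes were all 8, and of each list those at least 1.5-fold in the same direction in both ARRB1 siRNA or both nicotine pairs and the 3 with the largest mean absolute difference, plus the 5 genes outside the lists nearest to the median profile. Probe sets of these genes that are described singly were named after their values were seen. Some genes of the pathway are not analysed here.

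The alternatives were median centring of arrays, a floor at the 25th percentile, quantile normalization, a gene's median across its probe sets, omission of _x_at and _s_at probe sets, 1.5-fold in place of 2-fold, and other filters on dim probe sets.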

Additional observations from a re-analysis of the deposited data

Results flagged for a closer look

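Of 38 probe sets examined, 3 differed in opposite directions in the 2 arms of the design. In each arm the difference exceeded the SD of probe sets of similar signal, and none of these differences between arms was tested. The share of all expressed probe sets that meet this rule was not computed, so the count of 3 has no background beside it. FADS2 and MYLIP were examined because they had the largest mean absolute differences of their lists, so they were already selected for large differences. FADS2 differed with nicotine by 0.74 in ARRB1 siRNA cells and -0.41 in control siRNA cells. IDI1 208881_x_at differed with nicotine by 0.20 in ARRB1 siRNA cells and -0.17 in control siRNA cells, the first value barely past the SD of 0.20. MYLIP 223130_s_at differed with nicotine by -0.57 in ARRB1 siRNA cells and 0.76 in control siRNA cells. The same MYLIP probe set differed with ARRB1 siRNA by -0.73 in nicotine treated and 0.60 in serum starved cells. Both MYLIP contrasts are made of the same 4 arrays. By the median over its probe sets, which takes in dim ones, MYLIP kept 1 direction in each contrast. With nicotine it differed by 0.12 in ARRB1 siRNA and 0.36 in control siRNA cells. With ARRB1 siRNA it differed by -0.45 in nicotine treated and -0.44 in serum starved cells.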

How the results depend on the processing

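With 1 array per condition no array could be left out within a group. No paired analysis was possible because each group has 1 array and the labels give no replicate numbers. Of 315 values of member probe sets under centring, quantile normalization and the floor, all 315 moved by less than the SD of probe sets of similar signal, and 19 changed sign. Of 175 values of the 7 genes under 5 alternatives, 169 moved by less than that SD and 21 changed sign, and the largest was 0.62, for IDI1 with nicotine in ARRB1 siRNA cells when _x_at and _s_at probe sets were left out. Much of both counts was fixed in advance. Centring moves every probe set by the same amount within a comparison, and that amount was smaller than each of these SDs. The floor left the values of the 7 genes unchanged, and leaving out _x_at and _s_at probe sets changed those of IDI1 only. Genes lower with ARRB1 siRNA in both pairs numbered 5 by the median over probe sets, against 3. Those higher in both pairs numbered 1 after quantile normalization and 1 by the median over probe sets, against 4. Genes higher with nicotine in both pairs numbered 0 with centred arrays, against 3, and those lower numbered 2 with centred arrays and 0 by the median over probe sets, against 1. Probe sets at least 1.5-fold higher with nicotine in both pairs numbered 1 with centred arrays and 1 after quantile normalization, against 2. Efflux genes at least 1.5-fold lower with ARRB1 siRNA in both pairs numbered 1 with centred arrays, 1 without _x_at and _s_at probe sets and 0 by the median over probe sets, against 2. The causes of these shifts were not tested. Centring moved the median of all expressed genes to 0.10 for the ARRB1 siRNA difference under nicotine and to -0.12 for the nicotine difference with control siRNA. At 1.5-fold, the shares of genes across the 4 comparisons lay between 24.4% and 28.5% with no filter on dim probe sets, 16.2% and 20.7% with a filter at the 25th percentile, and 0.723% and 4.71% at the 75th.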
